A study of Bos taurus with 28 samples.

Results

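Muscle of previously feed-restricted steers was compared with that of control steers during compensatory growth, in 12 samples taken on day 131 out of 24 samples in the series. The members were the samples whose labels name the second time point, 6 from previously restricted and 6 from control steers, measured in 13 of the 28 libraries. All steers were male crosses of Aberdeen Angus and Holstein Friesian. Until day 99 controls had free access to concentrates (ad libitum) beside 7 kg of silage made from grass each day, and restricted steers had such silage ad libitum with 0.5 kg of concentrate. From day 99 both groups ate one mixed ration, 80% silage and 20% concentrate, so at the second biopsy, 32 days later, they differed in feeding history and not in ration. The control ration of day 131 was therefore not the high energy diet of day 99. The name of the muscle, the age and the weight of the steers are not stated in the labels. The same 12 steers had been sampled on day 99, and those samples enter the shared estimate of the spread, the interaction and the values set beside day 131.

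Compensatory growth is the faster gain of an animal whose feed supply is restored after a period of shortage. Skeletal muscle is a main site of it, because protein is laid down when synthesis exceeds breakdown, and both respond to growth hormone, insulin-like growth factors, insulin and the nutrient-sensing mTOR pathway. Fat inside the muscle depends on fatty acid synthesis and storage, which respond to energy supply. The deposited tables identify genes by Ensembl identifiers only, and none could be paired with a gene symbol here (0 of 24616). The account below therefore describes genes by abundance, size of difference and pattern among steers, gives 4 of them by identifier, and makes no statement on pathways or cell types. The label "muscle" could likewise not be checked against marker genes. In a biopsy of whole tissue, fewer cells of a type and less RNA per cell cannot be told apart.

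No gene passed the test between previously restricted and control steers at day 131. With edgeR's quasi-likelihood test on raw counts, fitted over all 24 samples, 0 of 11288 genes with enough counts passed a Benjamini-Hochberg adjusted p of 0.05 (0% of genes tested), and the smallest adjusted p was 0.128. At an unadjusted p under 0.05 there were 196 genes, 1.74% of those tested, where 564 would be the average with no effect. Correlation between genes can move the number in a single comparison away from that average. Of the 196, 99 (0.877% of genes tested) were higher and 97 (0.859%) lower in restricted steers. The split was less even with limma voom, where 150 genes were under 0.05 and 121 of them higher and 29 lower (DESeq2 gave 100 higher and 129 lower). DESeq2 called 3 genes, all described below, and limma voom called 0.

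**Figure D1:**
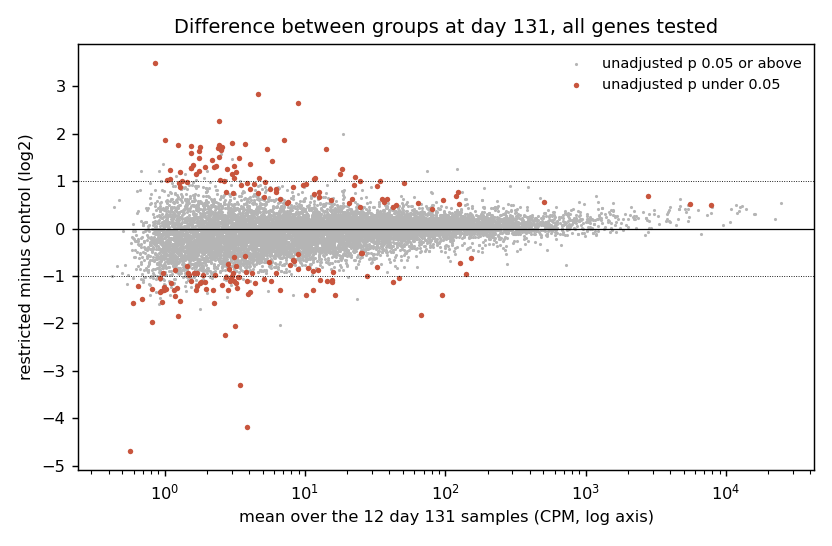
Each point is 1 of 11288 genes, with its mean level over the 12 samples of day 131 in CPM (log axis) against the fitted log2 difference, restricted minus control. Red points are the 196 genes with an unadjusted p under 0.05, the dotted lines mark a 2-fold difference, and 0 genes passed after adjustment.

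The size of the differences was small for most genes. The quartiles of the log2 differences were -0.258 and 0.147, and the median was -0.0179. Differences over 2-fold were fitted for 196 genes as well (1.74%), 68 higher and 128 lower, of which 113 also had an unadjusted p under 0.05. Genes of low abundance made up most of these, since 82.1% had a mean under 5 CPM against 33.1% of all genes tested. For 6557 genes (58.1%) the whole 95% interval of the difference lay within 2-fold in either direction, and for 1064 (9.43%) it lay within 1.5-fold. A difference of 2-fold or more was thus not compatible with the interval for these 6557 genes, and remained within it for the other 4731. The bound depended on abundance. In the quintile of genes with the lowest means (0.42 to 2.63 CPM, where CPM is the count scaled to a common library size) the median standard error was 0.494 on the log2 scale and 12.2% of intervals lay within 2-fold, while in the quintile with the highest means (63.4 CPM and above) the values were 0.277 and 91.9%.

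The direction of the differences also followed abundance. In the lowest quintile 32.4% of genes were higher in restricted steers, with a median log2 difference of -0.213, and the share was 34.9%, 42.2% and 57.0% in the next quintiles. In the highest quintile 70.6% were higher, with a median of 0.075. This gradient came with 1 sample. Without control steer 5 the shares ran the other way, from 54.3% in the lowest quintile to 33.9% in the highest, and the medians were 0.043 and -0.069. Of the 11 other left-out samples none turned it. The 2 alternative scalings did not either, with 30.5% and 61.3% for median-ratio size factors and 28.0% and 65.3% for upper-quartile factors. Leaving out sequencing run 4, which holds control steer 5, another 3 samples of day 131 and 3 of day 99, gave 62.7% in the lowest quintile and 28.3% in the highest.

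**Figure D2:**
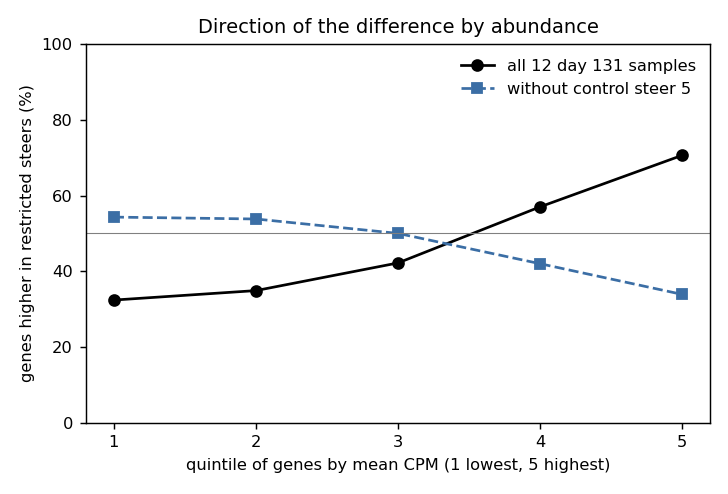
The share of genes fitted as higher in previously restricted than in control steers at day 131 is drawn for quintiles of the genes ordered by mean CPM, with all 12 samples (circles) and without control steer 5 (squares). The share rises from 32.4% to 70.6% with all samples and falls from 54.3% to 33.9% without that sample.

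The 10 most abundant genes of day 131 were all fitted as higher in restricted steers, by 0.196 to 0.542 on the log2 scale with a median of 0.387. None of the 10 had an unadjusted p under 0.05 (the smallest was 0.0701 by edgeR, with an adjusted p of 1). Their 95% intervals together spanned -0.384 to 1.18. Each of the 10 remained above 0 when any single sample of day 131 was left out and under the 2 other scalings, while the median dropped to 0.198 without control steer 5. Without run 4, 9 of 10 were above 0, with a median of 0.301. The share of a sample's reads taken by its 10 leading genes was 15.6% ± 2.19 in restricted and 13.7% ± 1.47 in control steers (SD, n = 6 each), from 12.4 to 18.4 and from 11.4 to 16.0. The groups overlapped, and the difference of 1.98 percentage points gave p = 0.0974 in a two-sided exact permutation test (adjusted p = 0.286 over 4 measures). Within runs 2, 3 and 4 it was 4.13, 0.684 and 1.16 points. Run 2 held only 1 control sample of day 131, and no restricted sample of that day was in run 1.

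Depth and detection overlapped between the groups. Totals ran from 4529138 to 16115476 counts in control steers and from 4023531 to 7657350 in restricted steers, and the control maximum is the sum of 2 libraries of control steer 2 (difference in means -2434012, exact permutation p = 0.156, adjusted p = 0.286). Without control steer 2 the difference in means was -927387 counts (exact permutation p = 0.325, adjusted p = 0.433), and with only the second library of that steer it was -1102713. Genes with at least 1 count numbered 14115 to 17446 in control and 13728 to 15686 in restricted samples (difference in means -566, exact permutation p = 0.348, adjusted p = 0.348). That difference was -169 genes without control steer 2, -158 with only its second library and -331 without restricted steer 6. Composition factors from TMM scaling, which fall below 1 where a few genes take a large share of the counts, were 0.824 to 1.59 and 0.786 to 0.993 (difference in means -0.149, exact permutation p = 0.214, adjusted p = 0.286), and the highest was that of control steer 5. Without control steer 5 the difference in the factor was -0.04 (exact permutation p = 0.429, adjusted p = 0.513). In the order of runs 2, 3 and 4, the differences in means were -2836200, -416428 and -6543 counts, 304, 9 and -782 genes, and 0.025, -0.0406 and -0.383 in the factor. Those of run 2 rest on 1 control sample of day 131.

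Overall profiles of the groups were intermingled. The first principal component of the 12 samples held 47.0% of the variance, and its scores ran from -59.9 to 118 in control and from -38.4 to 36.4 in restricted steers (difference in mean score by exact permutation test p = 0.688, adjusted p = 0.688 over 3 components). Components 2 and 3 held 9.73% and 8.59% and gave exact permutation p of 0.442 and 0.569 (both adjusted to 0.688). Distances between samples, as root mean square differences in log2 CPM, had a median of 0.747 among the 15 pairs of restricted steers, 0.944 among the 15 pairs of control steers and 0.796 among the 36 pairs across groups. The wider spread of the control group came with control steer 5, whose median distance to the other 11 samples was 1.31. Without it the control median was 0.773 and that across groups 0.758. Per gene, the median SD of log2 CPM was 0.444 in restricted and 0.653 in control steers, and 0.471 in control steers without steer 5. In control steers the SD was the higher of the pair for 76.5% of genes, and for 55.0% without steer 5.

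**Figure D3:**
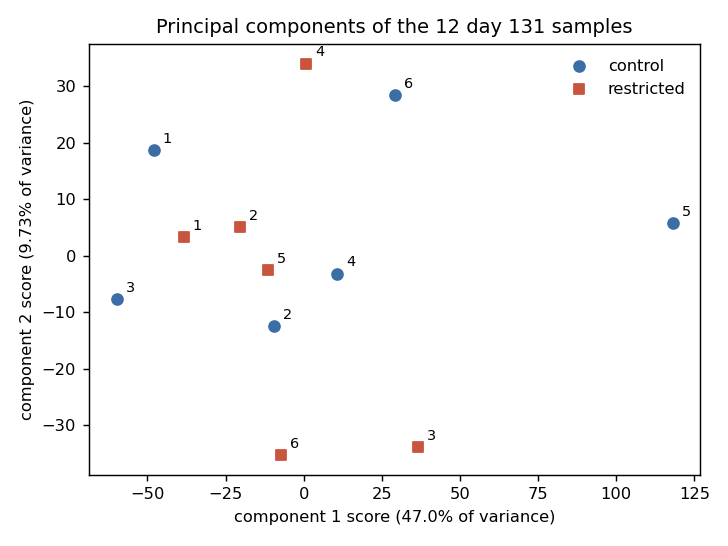
Scores of the 12 samples of day 131 on the first and second principal components of log2 CPM over 11288 genes, with circles for control and squares for previously restricted steers, numbered as in the labels. Control steer 5 stands at 118 on the first component, and the other 11 samples lie between -59.9 and 36.4 with both groups mixed.

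Complete separation of the 2 groups was rare. The values of 7 genes (0.062% of those tested) did not overlap between the 6 restricted and 6 control steers. Of these, 6 (0.0532%) were higher in restricted steers, by 0.663 to 1.59 on the log2 scale, and 5 of the 6 had an unadjusted p under 0.05. At day 99 the difference of these 6 genes ran from -0.526 to 0.119. All 7 were picked by their separation at day 131, so a small p there and a smaller difference at day 99 are no separate evidence. How many genes would separate with no effect was not computed. The remaining gene (0.00886%) had the smallest p of the comparison. Its level was 0.257 to 1.68 CPM in control steers (median 1.16) and 0 in 5 of 6 restricted steers, with 1 count in the sixth, at 0.134 CPM. The fitted log2 difference was -4.68 ± 0.884 (SE, edgeR unadjusted p = 1.13e-05, adjusted p = 0.128), and it rests on no more than 23 counts in any sample. DESeq2 called this gene too, from the same counts. The restricted samples of day 131, with at most 1 count, cannot have carried it past the low-count filter. Its p and its call therefore depend on the samples in which it is higher, and the call is no separate evidence. In the fit of the day 131 samples alone, and in that with a filter of 50 counts, the smallest adjusted p exceeded 0.128. Whether this gene was tested in those fits was not examined. The mean of this gene, 0.565 CPM, lies under the minimum of 1 CPM for genes given by identifier, and it was described after its values were seen.

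Among all 24616 identifiers, 1588 had counts in some control steer but in no restricted steer, and 836 showed the reverse. With all 12 samples thinned to 4023531 counts these were 1341 and 1169. Thinned with only the second library of control steer 2, they were 1107 and 1410. Genes found in nearly all steers of one group and in none of the other were few and shallow. Counts in at least 5 of 6 control steers with 0 counts in every restricted steer were found for 14 identifiers, with 5 to 36 counts in total over the control samples (median 8), and the opposite pattern for 0. None of the 14 passed the low-count filter. The highest count of 7 of the 14 lay in control steer 2 and that of 2 in control steer 5. By the rule of at least 5 of 6 steers, thinning all 12 samples to 4023531 counts gave 8 and 0. With only the second library of control steer 2, also thinned, the numbers were 5 and 4.

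The 4 genes given by identifier were those with the smallest unadjusted p and a mean of at least 1 CPM, 2 higher and 2 lower in restricted steers. By p the higher ones ranked 3 and 4 among all genes tested, and the lower ones 2 and 14. The genes ranked between the 2 lower ones were all higher in restricted steers. They were picked by their values in these samples, so their sizes are at the high end of what the data hold. ENSBTAG00000037794 ranged from 0.759 to 1.39 CPM in control steers of day 131 (median 1.12) and from 0.489 to 20.4 CPM in restricted steers (median 3.17). Restricted steers 2 and 3 stood at 20.4 and 19.6 CPM, the other 4 lay between 0.489 and 4.30, and restricted steer 6 was below every control. The log2 difference was 2.84 ± 0.685 (SE, edgeR unadjusted p = 0.000266, adjusted p = 1), a 7.18-fold difference with a 95% interval of 2.72 to 19.0. DESeq2 called this gene (adjusted p = 0.0415). Both high steers were sequenced in run 2, whose only control sample of day 131 is steer 3. The difference in log2 CPM was 4.22 there, against 0.36 in run 3 and 0.791 in run 4. Without run 2 the log2 difference was 0.934 (edgeR adjusted p = 0.734). The same 2 steers also had the highest levels on day 99, 15 and 6.2 CPM in runs 1 and 3, where the other 10 steers reached at most 4.85 CPM.

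ENSBTAG00000012319 lay between 1.15 and 4.83 CPM in control steers (median 2.08) and between 2.2 and 13.9 CPM in restricted steers (median 7.61). The groups overlapped through restricted steer 6 at 2.2 CPM and control steers 1 and 6, at 4.83 and 3.85 CPM, while the other 5 restricted steers, at 5.27 CPM and above, exceeded every control. The log2 difference was 1.67 ± 0.423 (SE, edgeR unadjusted p = 0.000456, adjusted p = 1), or 3.19-fold with a 95% interval of 1.75 to 5.81. It was 2.24, 0.244 and 2.28 in log2 CPM within runs 2, 3 and 4, with only 1 control sample of day 131 in run 2. On day 99 its medians were 5.43 CPM in control and 7.07 CPM in restricted steers, a log2 difference of 0.547 ± 0.404 (SE, edgeR adjusted p = 1). Control medians thus stood at 5.43 CPM on day 99 and 2.08 CPM on day 131, and restricted medians at 7.07 and 7.61 CPM.

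Among the 4 genes given by identifier, ENSBTAG00000016063 was the clearest case of a pattern by steer. Other genes were not searched for such a pattern. In control steers of day 131 it ranged from 0.144 to 18.4 CPM (median 7.60) and in restricted steers from 0 to 0.753 CPM (median 0.435), with 0 counts in 1 restricted sample and at most 5 in the others. Control steers 2, 4, 5 and 6 were high and control steers 1 and 3, at 0.805 and 0.144 CPM, were at the level of the restricted group. The same 4 control steers were high on day 99. Over both days their 8 samples held 5.01 to 18.4 CPM, and the 16 samples of the other 8 steers held at most 0.916 CPM. The log2 difference was -4.17 ± 0.896 at day 131 (SE, edgeR unadjusted p = 6.67e-05, adjusted p = 0.377) and -3.77 ± 0.841 at day 99 (SE, edgeR unadjusted p = 0.00011, adjusted p = 0.155), with a difference between the days of -0.41 ± 1.27 (SE, edgeR adjusted p = 1). DESeq2 called it at day 131 (adjusted p = 0.0415). In fits of the day 131 samples alone this gene did not pass the low-count filter and was not tested. In the fits of all 24 samples it passed only through the 8 samples of those 4 control steers. Its p-values and its call therefore depend on the steers in which it is high, and are no separate evidence of a difference. Both days rest on the same steers and are no separate evidence for an effect of feeding. Within run 2, whose only control sample of day 131 is steer 3, the difference in log2 CPM was 0.816, and it was -2.38 and -4.72 in runs 3 and 4.

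ENSBTAG00000020355 ranged from 6.06 to 49.2 CPM in control steers (median 23.9) and from 4.53 to 13.0 CPM in restricted steers (median 9.35). Control steers 2, 4, 5 and 6 lay above every restricted steer, and control steers 1 and 3, at 12.9 and 6.06 CPM, lay among them. The log2 difference was -1.40 ± 0.413 (SE, edgeR unadjusted p = 0.00203, adjusted p = 1), a level 2.64-fold lower in restricted steers with a 95% interval of 1.47 to 4.74. On day 99 the medians were 27.2 CPM in control and 26.7 CPM in restricted steers, and the difference was 0.21 ± 0.396 (SE, edgeR adjusted p = 1). The change of the difference between days was -1.61 ± 0.57 (SE, edgeR unadjusted p = 0.00855, adjusted p = 1). Within runs 2, 3 and 4 the difference in log2 CPM was 0.92 (against control steer 3 alone), -1.06 and -2.48. Without run 4 the log2 difference was -0.742.

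**Figure D4:**
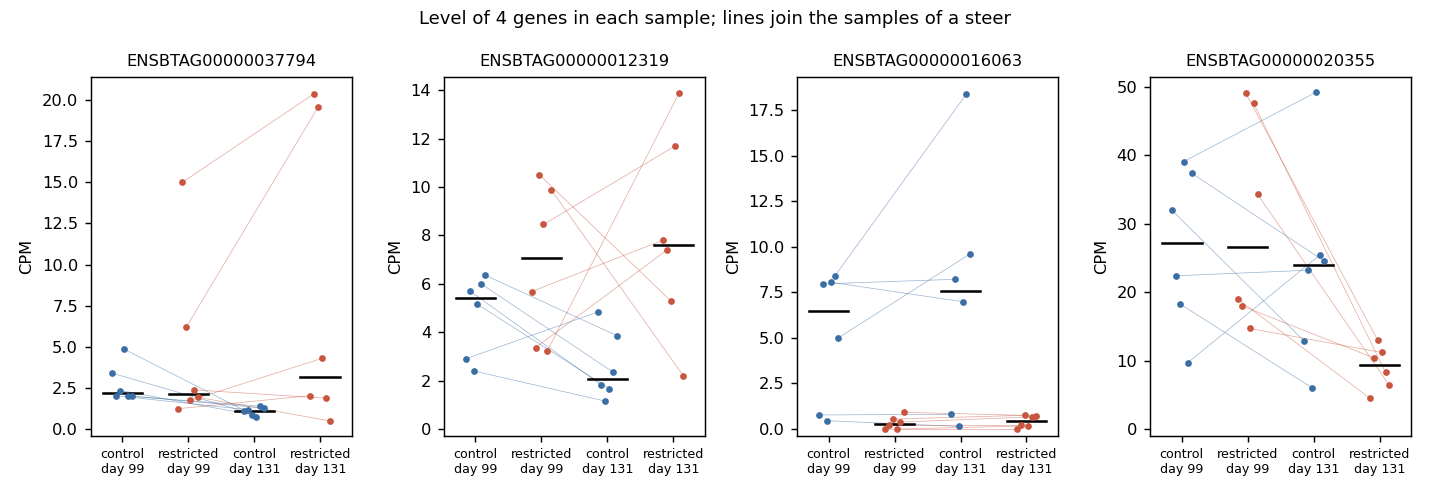
Each panel shows 1 gene in CPM in the 24 samples, by feeding history and day, with a thin line joining both samples of a steer and a black bar at the group median. In ENSBTAG00000016063 the same 4 control steers hold 5.01 CPM or more on both days and the other 16 samples at most 0.916 CPM, and in ENSBTAG00000037794 the same 2 restricted steers are highest on both days.

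Whether the difference between feeding histories at day 131 departed from the one at day 99 was tested as the diet by day interaction. By edgeR 0 of 11288 genes passed (0%), and the adjusted p was 0.224 or more for every gene. An unadjusted p under 0.05 was found for 283 genes (2.51%), 205 positive and 78 negative. Positive means that the difference, restricted minus control, was higher on day 131 than on day 99. The split was 237 and 53 by limma voom and 199 and 119 by DESeq2, while without run 3 it was 132 and 215 by edgeR. By DESeq2 2 genes passed, both positive (smallest adjusted p 0.00887), and by limma voom 0. The median standard error of this contrast was 0.487, against 0.347 for the difference at day 131 alone. The edgeR fit has no steer term, so it treats both samples of a steer as independent. With the steer as a block 0 genes passed by edgeR (smallest adjusted p 0.191). An unadjusted p under 0.05 was then found for 317 genes, 248 positive and 69 negative. At day 99 the edgeR fit without a steer term called 0 genes (0%), with 486 (4.31%) under an unadjusted p of 0.05. Of those 486 genes, 15 (3.09%) were also under 0.05 at day 131, and these were 7.65% of the 196 genes there. The 15 pointed the same way on both days in 10 cases. The 486 genes had a median absolute log2 difference of 0.851 at day 99, by which they were picked, and of 0.195 at day 131, beside 0.191 for all genes tested. The sign was the same on both days for 59.5% of the 486 and for 58.4% of all genes. Both days come from the same steers, so the shares are no separate evidence.

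The number of genes under an unadjusted p of 0.05 at day 131 moved with single samples. It was 508 (247 higher and 261 lower) without control steer 3, 307 without control steer 2 and 136 without control steer 5, and without any other single sample it stayed between 159 and 293. Without all 7 samples of run 2 (control steer 3 and restricted steers 2 and 3 of day 131, and 4 samples of day 99) it was 642. In each of these fits 0 genes passed after adjustment by edgeR, and with run as a covariate 0 passed and 163 were under 0.05.

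**Figure D5:**
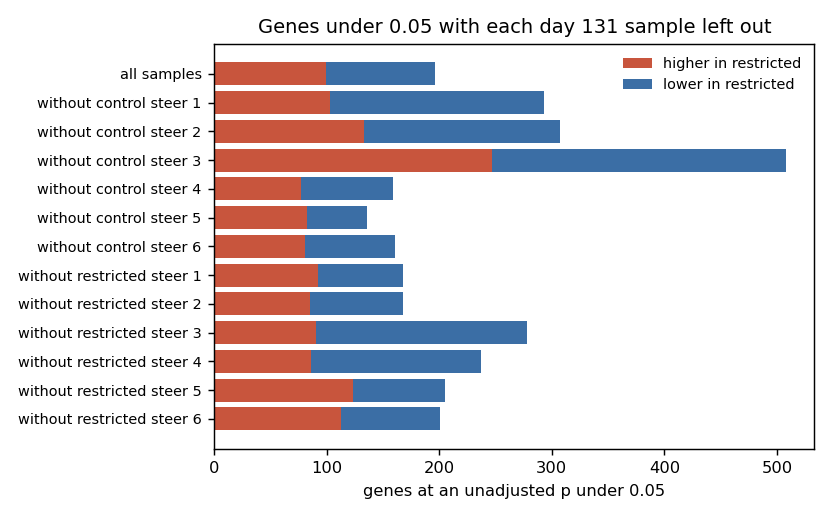
Bars give the number of genes at an unadjusted p under 0.05 between restricted and control steers at day 131, split by direction, with all samples and with each sample of that day left out in turn. The bar reaches 508 without control steer 3 and 136 without control steer 5, against 196 with all samples, and 0 genes passed the adjusted threshold in any of these fits.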

How the data were processed

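Each deposited file holds the read counts of 1 library, not normalized, for 24616 Ensembl identifiers. Per the submitters' processing notes the tools included CASAVA 1.4, Bowtie, SAMtools and HTSeq, with genome build UMD3.1. Annotation release, strandedness and filtering are not stated there, and overlapping and near-identical genes can share or lose reads. Both libraries of control steer 2 at day 131 showed no difference beyond sampling noise (chi-square per degree of freedom 0.807, against 14.1 to 194 between steers of day 131). They were summed and counted as 1 sample, as were the technical libraries of day 99. Sequencing runs were read from the dates in the file names, and runs 1 to 4 are in date order.

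Counts were tested in R 4.3.3 with edgeR 4.0.16 (filterByExpr with a minimum count of 10, TMM scaling, robust quasi-likelihood fit of the 4 groups without covariates, 20 residual degrees of freedom, Benjamini-Hochberg threshold 0.05). Standard errors were computed as the absolute log2 difference over the square root of F, and 95% intervals use the t distribution with the degrees of freedom of the test. CPM uses TMM-scaled totals, and log2 CPM a prior count of 2. The script was tested on simulated data. Alternatives used DESeq2 1.42.0, limma 3.58.1 and sva 3.50.0, other scalings and filters, thinning, run, and samples left out. The labels give the same number to different steers of the groups, so those numbers do not pair samples of day 131. The steer pairs the 2 days, and deviations of its samples from their group means correlated across genes with a median r of 0.158 (-0.605 to 0.52 over 12 steers). The naming rule was up to 2 identifiers higher and 2 lower with the smallest p and a mean of at least 1 CPM. The 37 gene lists written by symbol were not run, since no identifier matched. Comparison, lists and rule were chosen with earlier results of these data known. The exact permutation p-values rest on the spread between the 12 steers of day 131. The edgeR p-values rest on a spread pooled over the 24 samples of both days, in which each steer enters on 2 days as if independent.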

Additional observations from a re-analysis of the deposited data

Results flagged for a closer look

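In 2 of 22 sets of 6 values a sample stood apart from the other 5 of its group, where chance alone gives about 5% of sets. Control steer 2 had a total of 16115476 counts at day 131, the sum of libraries of 7987792 and 8127684. Control steer 5 had a TMM factor of 1.589 at day 131. Without control steer 2 the difference in mean totals was -927387 counts instead of -2434012, and without control steer 5 the difference in the mean factor was -0.04 instead of -0.149.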

How the results depend on the processing

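The 0 calls between the groups at day 131 remained 0 in 30 of 31 alternatives, and DESeq2 called 3 (1 higher, 2 lower). For the interaction, DESeq2 called 2 and a surrogate variable as a covariate 3, all positive. Leaving out single samples of day 131 gave 0 to 1, the call arising without control steer 2. The replicate block by steer gave 0 calls and 317 genes at an unadjusted p under 0.05. A replicate block by the shared numbers of different steers, on the samples of day 131 alone, gave 0 calls and 98 genes under 0.05. Same-numbered samples had a median correlation of -0.085 (-0.472 to 0.352), and 1 of 6 correlated best with its own number. Genes under 0.05 at day 131 numbered 652 with no filter (21258 genes tested), 98 with a filter of 50 counts (7848 tested) and 420 with the surrogate variable (325 higher, 95 lower). For the interaction they were 717 with no filter and 897 with the surrogate variable (698 positive, 199 negative). Intervals within 2-fold, 6557 in the report, numbered 3829 without run 3, 4151 without run 2, 7723 without samples of a TMM factor over 1.3, 7725 on day 131 without control steer 5 and 9132 with the surrogate variable. The difference in genes detected turned to 59 without control steers 2 and 5 (exact permutation p = 0.881). The 4 genes kept their direction in every alternative that tested them, from 0.934 to 3.3 for ENSBTAG00000037794, 1.22 to 2.22 for ENSBTAG00000012319, -4.51 to -3.45 for ENSBTAG00000016063 and -1.83 to -0.742 for ENSBTAG00000020355. ENSBTAG00000016063 was tested in 28 of the 31 alternatives, since it did not pass the low-count filter in the fits of day 131 samples alone. The 4 genes were picked by their values in these samples, so a kept direction is no separate evidence. The cause of the shifts between alternatives was not tested. Fits without runs 2, 3 or 4, without control steers 2 and 5 together, and on day 131 without control steer 5 were chosen after seeing the data. Low counts limit the lowest quintile of genes, where most intervals reach beyond 2-fold.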
